A study of Homo sapiens with 8 samples.

Results

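The enzymes that make glutamate, or use it and its amide glutamine, were examined in DLD-1 cells, a human colorectal adenocarcinoma line, after transfection with miR-143. The set was named as 9 genes: ABAT, ALDH5A1, GLUD1, GLUL, GOT1, GOT2, GPT2, GFPT1 and GCLC. ABAT was chosen by its lower values on these same arrays, and the others were added for their function, with earlier results of these arrays known. A probe set annotated to a single gene was present for 8 of the 9 genes, while GPT2, the mitochondrial alanine aminotransferase, was not analysed here. These 8 genes had 20 of the 41091 single-gene probe sets and were 8 of 19752 genes. Since the contrast that chose ABAT is the one described here, all differences between the groups are given as descriptions, and no p-value of a member is read as support.

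The study used 4 cultures that received miR-143 duplex at 50 nM and 4 that were mock transfected, all harvested after 24 h, with 1 Affymetrix HG-U133 Plus 2.0 array per culture. The mock cultures received no scrambled duplex, so the contrast is of duplex against no duplex. Both groups grew in high glucose DMEM with GlutaMAX, which supplies glutamine as a stable dipeptide, and the labels give Lipofectamine 2000 for both. All cultures are of 1 cell line, and the methods call them biological replicates. The values are log2 expression after RMA, which the authors computed, so a log2 fold change of −1 would be a halving.

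GABA, best known as an inhibitory transmitter of the brain, is broken down in mitochondria by the GABA shunt. ABAT moves the amino group of GABA to 2-oxoglutarate, which yields glutamate, and ALDH5A1 oxidises the remaining succinic semialdehyde to succinate, an intermediate of the citric acid cycle. Around this route, GLUD1 and the aminotransferases exchange glutamate with 2-oxoglutarate, GLUL makes glutamine, GFPT1 spends glutamine on hexosamines and GCLC spends glutamate on glutathione. Many tumour cells take up much glutamine and convert it to glutamate.

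The microRNA that the duplex imitates is shown first, since the duplex is the sole difference between the groups that the design intends. The study's methods describe a commercial mimic of mature miR-143 and give no sequence of its strands. The mature strands of human MIR143 (RefSeq, GRCh38.p14, chr5:149428978-149428998 for 3p and chr5:149428944-149428965 for 5p, plus strand) read as follows, with the seed, bases 2 to 8, in capitals.
hsa-miR-143-3p: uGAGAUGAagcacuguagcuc
hsa-miR-143-5p: gGUGCAGUgcugcaucucuggu
The 3p strand is the one usually called miR-143, and an mRNA site that pairs with its seed reads UCAUCUC. Sites in the members' transcripts were not searched here, and the arrays do not measure the mature microRNA.

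The replicate 4 arrays differed from the remaining 6, with first principal component scores of 0.163 (miR-143) and 0.174 (mock), against −0.123 to −0.022 for the rest (63.6% of the variance). Limma called 1 of all single-gene probe sets, a probe set of the non-coding gene OIP5-AS1 (log2 fold change −0.68, adjusted p = 0.0177), which is named because it was the only one and was chosen after its values were seen. The epithelial genes EPCAM, CDH1, KRT8, KRT18 and KRT19 were brighter than 96.7% to 100% of probe sets, and KRT20 than 93.3%. The colon genes CDX2 (73.7%), CDX1 (63.9%), VIL1 (60.6%) and LGALS4 (40.5%) lay in the range of 4 fibroblast genes (24.1% to 71.4%, the highest being COL1A1) or close to it, and 3 leukocyte genes at 20.8% to 52.1%.

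ABAT, which was chosen by this difference, had the lowest log2 fold change of the 8 enzymes, and the other 7 lay closer to mock by their brightest probe sets. By its brightest probe set (209459_s_at), ABAT (chr16:8674617-8784570, GRCh38.p14) had log2 values of 9.77, 9.75, 9.60 and 9.75 in miR-143 cultures 1 to 4, against 10.43, 10.11, 10.19 and 10.31 in mock cultures 1 to 4. The highest miR-143 array thus lay 0.34 below the lowest mock array. The mean was 9.72 ± 0.08 with miR-143 and 10.26 ± 0.14 in mock (SD, n = 4 each), a log2 fold change of −0.54 (standard error 0.077 from limma), or 68.7% of the mock level. In such bulk cultures, fewer cells that express a gene and less RNA per cell cannot be told apart. Of 19752 genes, 12 had a log2 fold change this low or lower, ABAT among them. Replicate 4, which stood apart on the arrays as a whole, lay within the range of the other ABAT values in both groups.

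The other probe sets of ABAT showed less. Probe set 209460_at, annotated to the same cDNA accession as the brightest one, had 8.69, 8.41, 8.42 and 9.06 with miR-143, against 8.94, 8.91, 8.70 and 9.34 in mock. In this probe set the groups overlapped, both replicate 4 arrays were the highest of their group, and the log2 fold change was −0.33 (standard error 0.166). Probe set 206527_at averaged 7.48 ± 0.09 with miR-143 and 7.52 ± 0.01 in mock (SD, n = 4 each), which differ by −0.04 on the log2 scale (standard error 0.056). Its level lay near 7.31, the median of all single-gene probe sets, and the deposited values hold no call of detection.

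ALDH5A1, the succinic semialdehyde dehydrogenase next to ABAT in the shunt (chr6:24494969-24537207), lay closer to mock. Its brightest probe set had 9.21, 9.17, 9.04 and 9.47 with miR-143, against 9.28, 9.29, 9.22 and 9.57 in mock. The groups overlapped only through replicate 4, which lay highest in each. The log2 fold change was −0.12 (standard error 0.104), or 92.1% of mock. The other probe set, 203609_s_at, was dim in all arrays (at most 7.41 with miR-143 and 7.47 in mock) and had −0.02 (standard error 0.059).

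**Figure D1:**
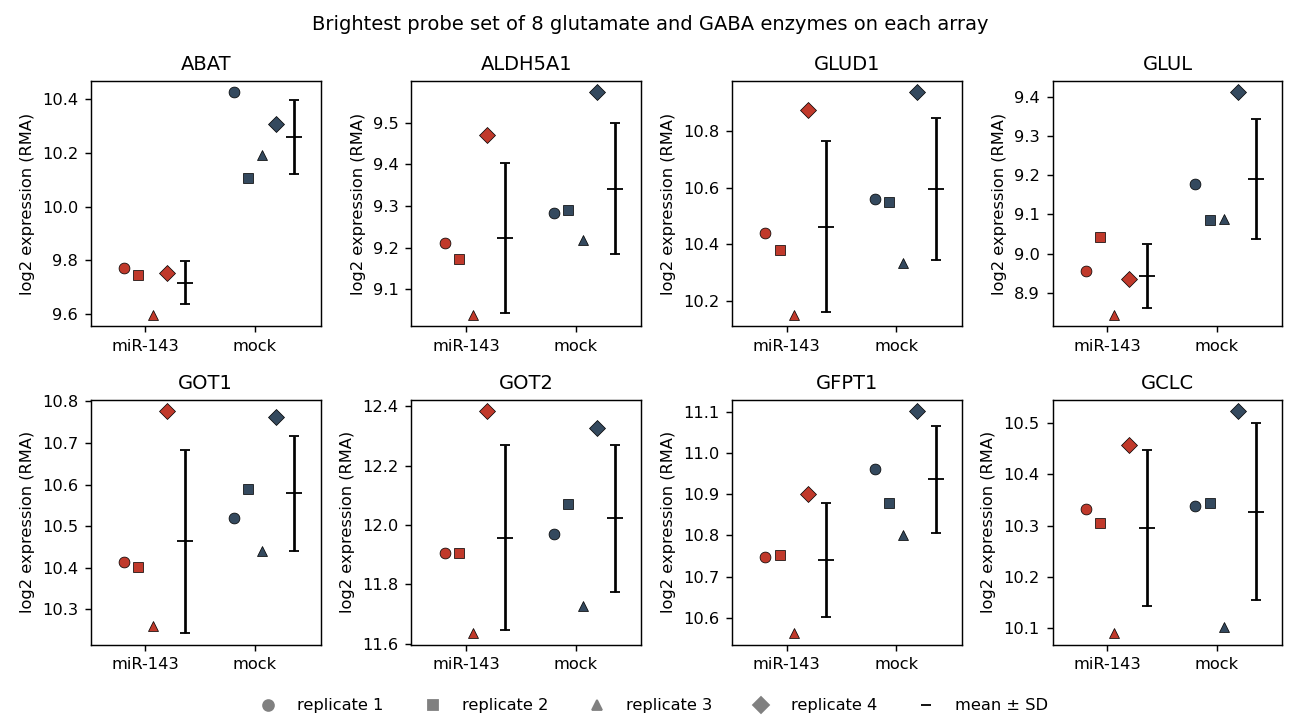
Log2 expression (RMA) of the brightest probe set of each of the 8 measured enzymes on every array, with miR-143 left and mock right in each panel, a marker shape per replicate number, and the mean ± SD (n = 4) beside the points. The axes start at different levels. The groups are apart for ABAT (9.60 to 9.77 against 10.11 to 10.43) and, narrowly, for GLUL (8.84 to 9.04 against 9.09 to 9.41), and overlap in the other 6 genes.

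Of GLUD1, GOT1 and GOT2, none had groups that were apart. GLUD1 (chr10:87050202-87094843), which interconverts glutamate and 2-oxoglutarate in mitochondria, had 10.44, 10.38, 10.15 and 10.87 with miR-143, against 10.56, 10.55, 10.33 and 10.94 in mock. Its log2 fold change was −0.13 (standard error 0.161). Its spread within a group exceeded the difference between the groups. The other GLUD1 probe set had −0.04 (standard error 0.176). Whether either probe set also picks up near-identical copies of the gene was not examined.
GOT1, the cytosolic aspartate aminotransferase (chr10:99396870-99430624), had 10.41, 10.40, 10.26 and 10.78 with miR-143, against 10.52, 10.59, 10.44 and 10.76 in mock, which amounts to −0.12 on the log2 scale (standard error 0.111). GOT2, its mitochondrial counterpart (chr16:58707131-58734316), was bright throughout, at 11.91, 11.91, 11.64 and 12.38 with miR-143 and 11.97, 12.07, 11.73 and 12.33 in mock. Its log2 fold change of −0.07 (standard error 0.163) had the opposite sign, 0.01, after cyclic loess or quantile normalization between the arrays. In GOT1 and GOT2 the miR-143 replicate 4 array lay above the mock replicate 4 array, by 0.01 and 0.06, whereas in the other 6 genes it lay below.

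GLUL was the other enzyme whose groups did not overlap. Glutamine synthetase, the product of GLUL (chr1:182378098-182391790), joins ammonia to glutamate and so runs against the breakdown of glutamine. Its brightest probe set (215001_s_at) had 8.95, 9.04, 8.84 and 8.93 with miR-143, against 9.18, 9.09, 9.09 and 9.41 in mock. The gap between the groups was only 0.04, and mock replicate 4 was the farthest value. The log2 fold change was −0.25 (standard error 0.081), or 84.2% of mock, and −0.17 without mock replicate 4. The 3 other GLUL probe sets averaged between 6.71 and 7.24 in either group, below the median of all probe sets, and had log2 fold changes of −0.02 to 0.03.

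GFPT1, which transfers the amide of glutamine to fructose 6-phosphate and controls entry into hexosamine synthesis (chr2:69319780-69387227), lay lower by 1 of its 4 probe sets. The brightest (202722_s_at) had 10.75, 10.75, 10.56 and 10.90 with miR-143, against 10.96, 10.88, 10.80 and 11.10 in mock. This probe set differed by −0.20 on the log2 scale (standard error 0.086), which is 87.4% of mock, and its groups overlapped. The other 3 were well above the median level, at means of 9.67 to 9.86 in either group, yet had log2 fold changes of −0.04 to 0.0013. The probe sets of GFPT1 thus disagreed although none was dim, and where each lies in the transcript was not examined.

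GCLC, the catalytic subunit of the ligase that starts glutathione synthesis (chr6:53497341-53545101), had the smallest difference of the 8 by brightest probe set. Its brightest probe set had 10.33, 10.30, 10.09 and 10.46 with miR-143, against 10.34, 10.34, 10.10 and 10.52 in mock. The log2 fold change of −0.03 (standard error 0.10) became 0.02 after cyclic loess or quantile normalization. A second bright probe set had 0.01 (standard error 0.071), and the third, which was dim, had −0.06 (standard error 0.067).

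**Figure D2:**
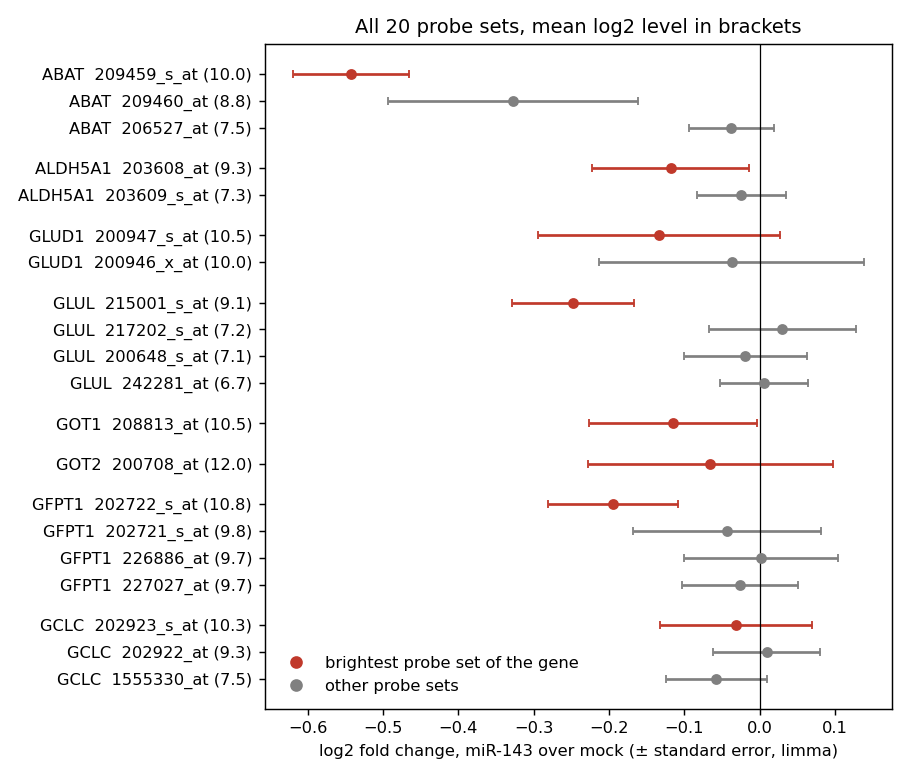
Log2 ratio of miR-143 to mock with its standard error from limma (n = 4 arrays per group) for all 20 probe sets, grouped by gene, with the mean log2 level of each in brackets. The brightest probe set of each gene is red. ABAT reaches −0.54 and −0.33 by its 2 brighter probe sets, while 1 of 4 GFPT1 probe sets (−0.20) and 1 of 4 GLUL probe sets (−0.25) stand away from the rest of their gene.

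Over all 20 probe sets, 16 were negative. Limma without a block called 0 of the 20 at an adjusted p of 0.05, against 0.00243% of all single-gene probe sets. An unadjusted p under 0.05 was found for 3 of the 20, the brightest ones of ABAT, GLUL and GFPT1, against 2.57% of all. The miR-143 arrays lay wholly below the mock arrays for 2 of 8 genes, ABAT and GLUL, against 1.24% of all genes. The same contrast chose ABAT, so these counts stand beside the background without a reading.

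By the brightest probe set, all 8 genes were negative, and so were 55.6% of all genes and 61.4% of the genes above the median level. The signs of GOT2 and GCLC turned under cyclic loess and quantile normalization and when either miR-143 replicate 3 or mock replicate 4 was left out. The median of the 7 genes other than ABAT was −0.12, against −0.01 for all genes and −0.02 for the 11631 genes above the median level. It was −0.04 without mock replicate 4, −0.05 without miR-143 replicate 3, −0.22 without miR-143 replicate 4 and −0.16 without replicate 4 of both groups.

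Brighter genes lay lower in miR-143 cultures on these arrays in general, and the enzymes are bright. Among the 2145 genes with a mean of 9 to 10, where ABAT, ALDH5A1 and GLUL fall, 63.1% were negative, the median log2 fold change was −0.03 and the lower quartile −0.09. Among the 1536 genes from 10 to 11, with GLUD1, GOT1, GFPT1 and GCLC, 71.0% were negative, the median was −0.05 and the lower quartile −0.11. For the 900 genes from 11 to 12, with GOT2, 81.7% were negative, and the median and lower quartile were −0.07 and −0.11. GOT2 and GCLC therefore lay above the lower quartile of genes of their level, and the other 6 below it, ALDH5A1, GLUD1 and GOT1 by less than 0.05. The part of level in the differences was not tested.

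**Figure D3:**
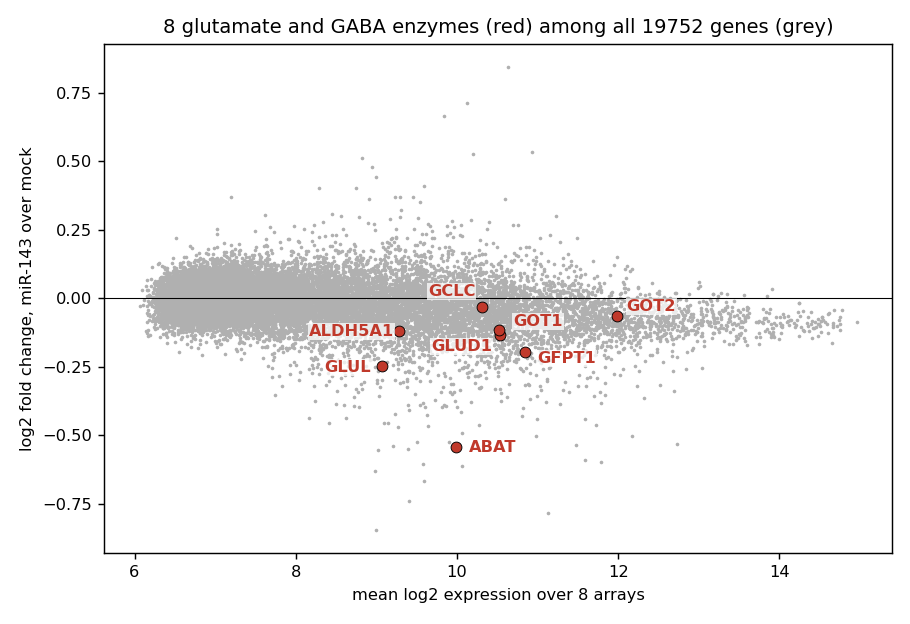
Log2 ratio of miR-143 to mock against mean log2 expression over the 8 arrays, with 1 grey point for each of 19752 genes (brightest probe set) and the 8 enzymes in red. ABAT (−0.54) lies at the lower edge of the cloud, GLUL (−0.25) and GFPT1 (−0.20) lower in it, and the other 5 within its dense part, which itself slopes below 0 at high levels.

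Within each group, replicates 3 and 4 often took the same place in the enzymes. The share among genes above the median level is given beside each count. In all 8 genes miR-143 replicate 3 was the lowest of the miR-143 arrays, as it was in 60.2% of genes above the median level. Mock replicate 3 was the lowest mock array in 6 of the 8 genes (37.3% of genes above the median level). Replicate 4 was the highest miR-143 array in 6 of the 8 (64.7%) and the highest mock array in 7 of the 8 (65.4%).
With replicate 4 of both groups set aside, the miR-143 arrays lay below the mock arrays for 5 of 8 genes, ABAT, ALDH5A1, GLUL, GOT1 and GFPT1, against 6.59% of all genes. The same 5 were apart when miR-143 replicate 4 alone was left out, against 4.62% of all genes. Neither share was computed for genes above the median level alone, and ABAT was chosen by this contrast. In the 6 arrays without replicate 4, ALDH5A1 ranged from 9.04 to 9.21 with miR-143 and from 9.22 to 9.29 in mock, a gap of under 0.01. GFPT1 ranged from 10.56 to 10.75 with miR-143 and from 10.80 to 10.96 in mock. GLUD1, GOT2 and GCLC overlapped in these 6 arrays as well. The log2 fold change of ABAT was −0.54 again, while those of the other 7 ran from −0.19 (GFPT1) to −0.02 (GCLC).

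**Figure D4:**
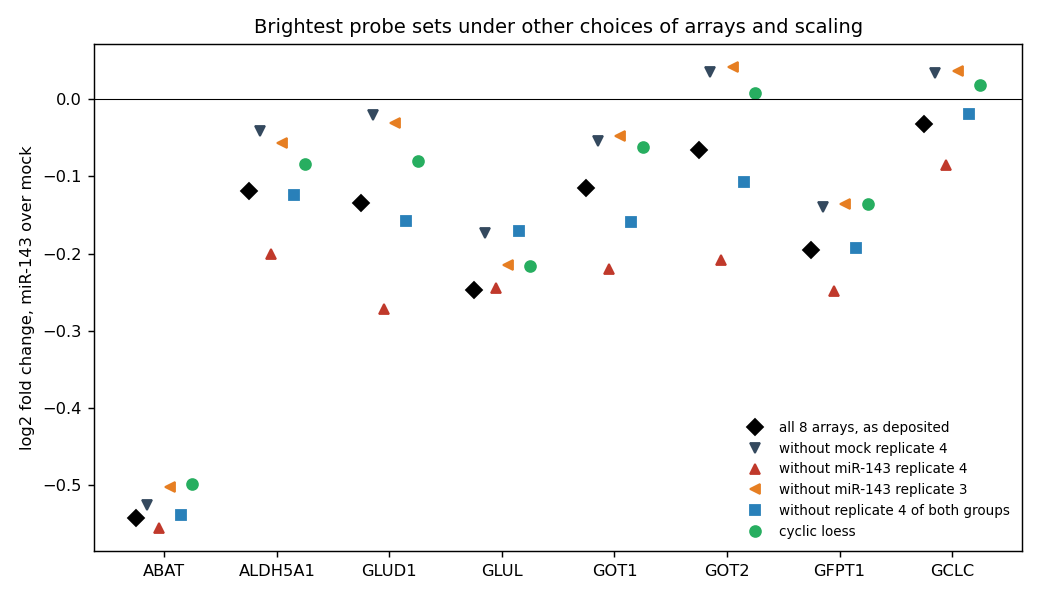
Log2 ratio of miR-143 to mock, by the brightest probe set of each enzyme, with all 8 arrays and under 5 other choices of arrays or scaling, a marker for each. ABAT stays between −0.55 and −0.50, whereas GOT2 and GCLC change sign when mock replicate 4 or miR-143 replicate 3 is left out and after cyclic loess.

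Across the 8 arrays, the brightest probe set of ABAT was set beside those of all other genes. The other enzymes were only 7 of the 19752 genes, so their absence from the 5 most alike says little about them. Likeness was measured as Pearson's r over the 8 arrays, and these arrays include the contrast itself, so the values are descriptions. The 5 highest were CRLF3 (0.984), the hyaluronan receptor gene HMMR (0.983), the kinase gene HIPK2 (0.980), the xylosyltransferase gene GXYLT1 (0.978) and ATP6V1A (0.977), a subunit of the vacuolar proton pump. Their log2 fold changes ran from −0.67 (GXYLT1) to −0.36 (HMMR). Over the 6 arrays without replicate 4 their r was 0.981 to 0.993. Of the enzymes, GLUL had an r of 0.836 (rank 202) and GFPT1 one of 0.772 (rank 409), while ALDH5A1, the next step of the shunt, had 0.480 (rank 2699). The remaining 4 ran from 0.247 (GOT2) to 0.419 (GOT1). Over the 6 arrays without replicate 4, r was higher for 6 of these 7 enzymes, at 0.909 for GLUL, 0.902 for GFPT1, 0.813 for ALDH5A1, 0.773 for GOT1, 0.695 for GLUD1 and 0.449 for GOT2, and it was 0.266 for GCLC.

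Further genes of glutamate metabolism, listed by role, were examined in the same way. Of 58 listed genes 49 had a single-gene probe set. Of these, 29 were negative and 20 positive, beside 55.6% negative among all genes, and the median log2 fold change was −0.02. Limma called 0 of the 49, and 1 had an unadjusted p under 0.05, against 0.00243% and 2.57% of all single-gene probe sets. The miR-143 arrays lay wholly below the mock arrays for 2 of the 49, TAT and PLPBP, against 1.24% of all genes.
On the rest of the GABA route 2 of 4 genes were negative (median 0.01). GAD1, which makes GABA from glutamate, had 0.03 (standard error 0.065), AKR7A2, which reduces succinic semialdehyde, had −0.06 (0.098), and ADHFE1 had 0.05 (0.065).
Among 9 other aminotransferases 6 were negative (median −0.05). The lowest were the ornithine aminotransferase OAT, at 12.49 ± 0.11 with miR-143 and 12.60 ± 0.16 in mock (SD, n = 4 each), and KYAT3, at 10.59 ± 0.05 with miR-143 and 10.69 ± 0.12 in mock, each with a log2 fold change of −0.11. TAT, the dim tyrosine aminotransferase, lay wholly below mock but by a log2 fold change of only −0.05.

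The list for glutamine use, which also holds the ammonia-using CPS1, had 5 of 9 negative genes and a median of −0.02. PPAT, the entry enzyme of purine synthesis, had the lowest value, −0.22, with a standard error of 0.247, since its arrays spread from 9.97 to 10.91 with miR-143 and from 10.10 to 11.22 in mock. CPS1, the mitochondrial carbamoyl phosphate synthetase, which takes free ammonia and not glutamine, at 6.79 with miR-143 and 6.68 in mock, was below the median level.
In glutathione metabolism 6 of 8 were negative (median −0.02). GCLM, the partner subunit of GCLC, had 11.45 ± 0.11 with miR-143 and 11.34 ± 0.07 in mock (SD, n = 4 each), which is 0.12 higher on the log2 scale (standard error 0.068), and GGT1 had 0.07 (0.108).
Among further genes of hexosamine metabolism 2 of 5 were negative (median 0.04), and NAGK (0.15, standard error 0.178) and UAP1 (0.06, 0.145) were both positive. Proline and ornithine enzymes had 2 of 5 negative genes, PYCR3 (−0.15, 0.117) and ALDH18A1 (−0.11, 0.102). Of 8 genes from 2-oxoglutarate to fumarate, the stretch of the cycle that the shunt joins at succinate, 5 were negative, among them SDHD (−0.13, 0.079) and SUCLG2 (−0.08, 0.098).

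Among the further genes the lowest log2 fold change was that of PLPBP. This gene, whose product binds pyridoxal phosphate, the cofactor of ABAT and of the aminotransferases, had 10.73, 10.79, 10.43 and 10.95 with miR-143, against 11.26, 11.29, 10.96 and 11.42 in mock. Its highest miR-143 array was just below its lowest mock array. The log2 fold change was −0.50 (standard error 0.123, adjusted p = 0.933 from limma without a block). The study lists PLPBP, under an older symbol, and ABAT among its putative miR-143 targets. It selected these by lower values on these arrays together with a miR-143 seed site in the 3' untranslated region. The difference of PLPBP is therefore not independent of that choice. From the same arrays, the study also reported glutamate metabolism among the KEGG pathways enriched in its down-regulated gene sets. That gene set analysis took the fold changes of all genes with no cutoff, and it was not repeated here.

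**Figure D5:**
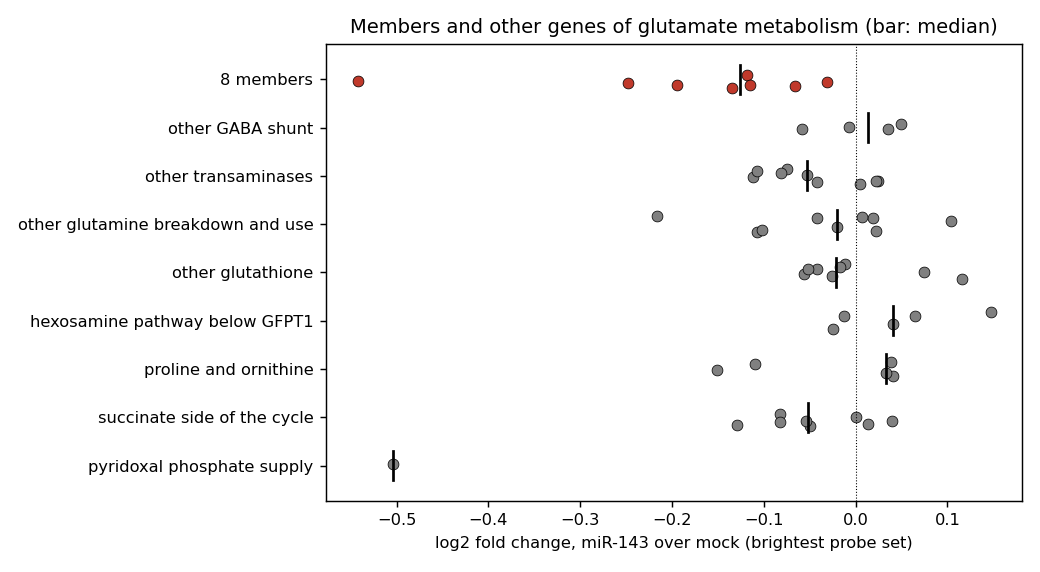
Log2 ratio of miR-143 to mock by brightest probe set for the 8 enzymes (red, top row) and for 49 further genes of glutamate metabolism in 8 lists (grey), with a bar at each median. Points are spread vertically for legibility. The lowest points are ABAT (−0.54) and PLPBP (−0.50).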

How the data were processed

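RNA of DLD-1 cells, with or without miR-143 duplex, was profiled on 8 arrays, 4 per group. The values are log2 expression per probe set which the authors obtained by RMA (affy), per the submitters' processing notes. Versions are not given in the sources used here. RMA scales arrays to each other, so changes are relative, but the deposited arrays still differed somewhat, with medians of 7.26 to 7.33 over single-gene probe sets. Arrays give no counts, and their number limits the precision.

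Probe sets came with GEO's platform annotation, and symbols were updated by Entrez identifier from RefSeq (GRCh38.p14, from which gene coordinates also come). Of 54675 probe sets 41091 had 1 gene symbol and were kept, 1801 had several, 11721 had none in that table and 62 were controls. For values per gene, the brightest probe set (highest mean over the 8 arrays) was taken. Groups were compared with two-sided moderated tests of limma 3.58.1 (functions lmFit, eBayes; R 4.3.3) over all 41091 probe sets, with no block, as the study's methods name none, and p-values were adjusted by Benjamini-Hochberg over all of them (threshold 0.05). Standard errors are from that model. Figures were drawn with Python 3.11.15 and matplotlib 3.10.9. Tested on simulated data with 200 changed probe sets among 41091, the procedure found 99.3% of log2 changes of 1.5 and 89.3% of those of 0.8, with 4 to 13 false calls in each of 3 simulations. Both sizes exceed every difference given for the members, for which no rate was simulated. The simulated noise was independent for each probe set and array. The real replicate 4 arrays departed together from the others, so the simulated rates need not hold for the real arrays.

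The members and lists were chosen with earlier results of these data known. Named are all members, the 2 genes of lowest p in each list of further genes, and the 5 genes most correlated with ABAT. GAD1 and TAT are named outside this rule, after their values were seen. The alternatives were the replicate number as a block, other normalizations, array weights, filters on level and variance, other summaries per gene, and leaving out arrays.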

Additional observations from a re-analysis of the deposited data

Results flagged for a closer look

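Among the 40 groups of 4 arrays formed by the 20 probe sets and both conditions, 2 held an array far from the other 3 by Dixon's ratio. Chance gives about 1 in 20 groups. In the brightest ABAT probe set, miR-143 replicate 3 lay at 9.60, while the other miR-143 arrays lay from 9.75 to 9.77 (ratio 0.867). Without it the log2 fold change of ABAT was −0.50. In the dim ALDH5A1 probe set 203609_s_at, mock replicate 3 lay at 7.47, while the other mock arrays lay from 7.29 to 7.31 (ratio 0.891).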

How the results depend on the processing

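The log2 fold change of ABAT kept its sign under all 17 alternatives, from −0.59 to −0.30, and −0.30 is the mean over its 3 probe sets, the dim one included. With single arrays left out it ran from −0.59 to −0.49. The median of the other 7 genes ran from −0.22 to −0.04 with single arrays left out. GOT2 and GCLC turned positive under 4 alternatives each, the other 5 genes under none. The interquartile range filter removed 5 of these 7, so it gives no median. As the mean over its probe sets, GLUL had −0.06.

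Limma called 1 probe set in all and 0 of the members. The totals were 60 after cyclic loess (37 lower and 23 higher), 68 after quantile normalization (42 and 26), 54 with array weights (35 and 19) and 51 without replicate 4 of both groups (32 and 19). In each of these 1 member probe set was called, of ABAT (adjusted p = 0.0405, 0.0485, 0.017 and 0.0441 from limma, over a range of 0.00155 to 1 across all alternatives). The total was 0 with the brightest probe set or the mean per gene and with the variance filter, 1 with the filter on level, and 0 to 1 with single arrays left out, with 0 members called in each. Of the further genes, 0 were called with all 8 arrays and with single arrays left out, and 1, PLPBP, after quantile normalization.

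The labels number the arrays 1 to 4 in both groups. Taken as departures from the group mean, arrays of 1 number correlated at 0.08, 0.11, 0.56 and 0.77, against a limit of 0.1 for every pair. The miR-143 replicates 3 and 4 correlated best with their own number and replicates 1 and 2 with another, so the numbers were not treated as pairs throughout. With the replicate number as a block 216 probe sets were called (171 lower and 45 higher), 2 of them members, both of ABAT, and 1 of the further genes, PLPBP.

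Genes with groups apart numbered 2 of 8, and 2 to 5 with single arrays left out, the 5 being without miR-143 replicate 4 (4.62% of all genes). They numbered 5 without replicate 4 of both groups (6.59%), 1 with the mean per gene and 1 with the variance filter. That filter left only ABAT, GLUD1 and GOT2 of the members, so GLUL was not counted there. The share of all genes was not computed for the other choices. Non-overlap was not recomputed after renormalization. Probe sets near the median level bound nothing about their gene.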
